A study of Saccharomyces cerevisiae with 9 samples.

Results

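The 81 genes described here encode the proteins of the large (60S) subunit of the cytosolic ribosome of budding yeast, Saccharomyces cerevisiae. They were found by gene symbol: RPL followed by a number and an optional A or B, or RPP0, RPP1 or RPP2 with an optional A or B, where the symbol came from the systematic name on the array. This rule matched 82 of 6947 probes, and no gene had a second probe. One match, RPP1 (YHR062C), is a subunit of the RNA-processing enzymes RNase P and RNase MRP and not a ribosomal protein. It is left out of every count below, and its mutator log2 ratio was 0.62 ± 0.08 (SD, n = 3, limma adjusted p = 0.000286). Of the 81 genes, 70 form 35 pairs of A and B paralogues, most of them copies left by an ancient duplication of the yeast genome, and 11 are single-copy.

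The study grew yeast for 6700 generations and compared each evolved strain with its own ancestor on 2-colour expression arrays. The evolved mutator, line m8, derives from the ancestral mutator strain, one with a raised mutation rate, and was set against it on 6 arrays. The evolved non-mutator was set against the ancestral non-mutator strain on 3 arrays. All strains were grown overnight in rich medium (YPD), diluted and grown on to an optical density of about 0.3, and total RNA was labelled, the evolved strain with Cy5 and the ancestor with Cy3. Every array had the same dye orientation, so a dye effect and a strain effect cannot be told apart. The labels do not name the mutator allele, the mutator arrays follow 1 evolved line, and nothing in the labels says that the RNA samples came from separate cultures, so p-values measure the spread between these RNA samples, which may be technical. The mutator arrays form a first round of 3 and a repeat round of 3. Evolved RNA numbers 1, 2 and 3 occur once in each round, and the mean of the 2 arrays of a number is 1 replicate. First-round arrays 1, 2 and 3 used ancestor RNA 1, 2 and 3, while repeat arrays 1 and 2 both used ancestor RNA 1 and repeat array 3 used ancestor RNA 3, so replicates 1 and 2 share an ancestor RNA and are not fully independent.

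The deposited values are ratios, taken as evolved over ancestor from the dye labels, a direction that is likely but not stated with the values. Each is given below as a log2 ratio with the median of all probes on its array at 0, so that 0.43 is a ratio 1.35 times that of the median probe. A ratio says nothing of how abundant a transcript is, and in these bulk cultures a change in all cells and a change in the share of cells that express a gene cannot be told apart. The mutator arrays were more widely spread over all probes (SD 0.848 to 1.0015 per array) than the non-mutator arrays (SD 0.28 to 0.30).

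In yeast, ribosomal protein genes are among the most heavily transcribed genes of a growing cell, and they are transcribed together. Rap1, Fhl1, Ifh1 and Sfp1 act at their promoters, and the TOR and protein kinase A pathways tie their output to nutrients and growth rate. The proteins are imported into the nucleus, assembled with ribosomal RNA into pre-60S particles, and exported for final maturation in the cytoplasm. Paralogous copies often encode nearly identical proteins, and an array probe to one copy may also bind RNA of the other.

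Many of these genes share a value on the non-mutator arrays. On each non-mutator array a single narrow window of deposited ratios, 0.001 wide, held far more probes than its neighbours. The window ran from 0.966 to 0.967 on array 3 with 288 probes, from 0.991 to 0.992 on array 4 with 320 probes, and from 1.015 to 1.016 on array 2 with 283 probes. Other windows of that width near a ratio of 1 held a median of 17, 18 and 20 probes on arrays 3, 4 and 2. Of the 81 genes, 27 (33.3%) lay in the window on all 3 non-mutator arrays, against 248 of all 6947 probes (3.57%). A further 5 genes lay in it on 2 arrays, 9 on 1 array and 40 on none. Among the 56 genes of the small ribosomal subunit, 18 lay in it on all 3 arrays. On the mutator arrays the fullest window held 18 to 48 probes and none of the 81 genes. The cause was not tested, since no signal intensities are used here. For the 27 genes the non-mutator mean is between -0.022 and -0.021 whatever the gene, so their non-mutator values, and any difference that uses them, carry that shared value. Each of the 27 has a non-mutator SD of 0.03. Both groups share 1 estimate of the spread in the fit, so this SD also enters the mutator p-values of these genes.

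**Figure D1:**
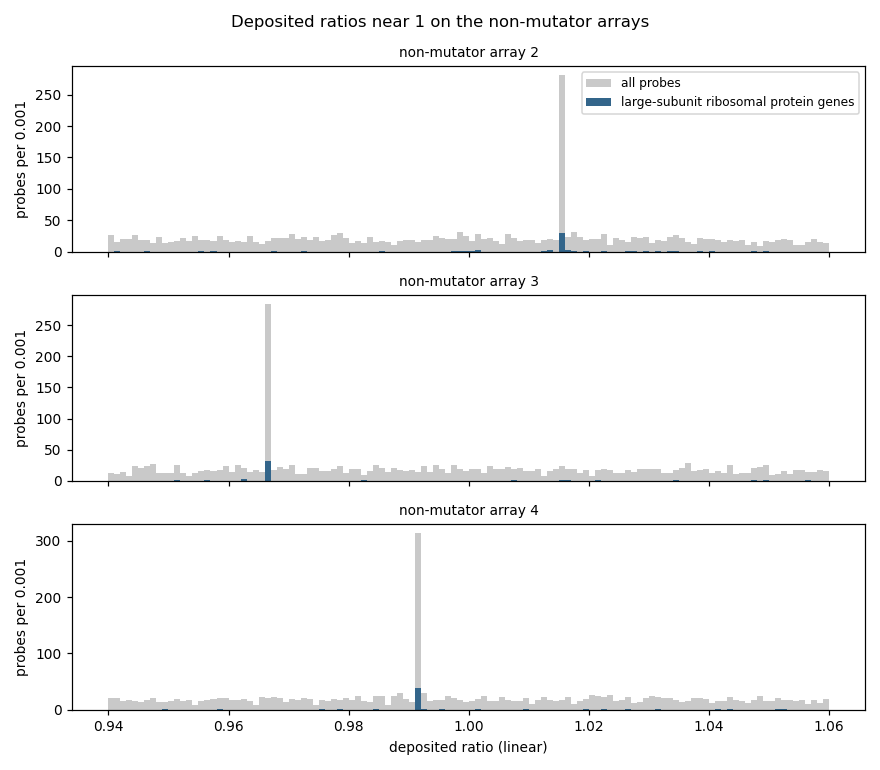
Number of probes per 0.001 of deposited ratio (linear scale, near 1) on non-mutator arrays 2, 3 and 4, for all probes in grey and for the 81 large-subunit genes in blue. One window on each array holds 283 to 320 probes, 30 to 39 of them large-subunit genes, while its neighbours hold about 20.

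In the evolved mutator 76 of the 81 genes rose and none fell (limma, adjusted p under 0.05 over 6866 probes). With each group fitted alone, so that the shared non-mutator ratios play no part, 66 were called higher. Over all probes tested 37.3% were called higher and 37.8% lower, so calls were common in both directions and the large-subunit genes lay on one side only. Their median log2 ratio was 0.43, with an SD of 0.09 between the medians of the 3 replicates, beside 0.02 for all probes. The changes were small: the means ran from 0.10 for RPP0 to 0.96 for RPL15A, 26 genes were at 0.5 or more, 46 between 0.25 and 0.5, 9 below 0.25, and none reached a doubling. The genes of the small subunit gave a like picture, with 54 of 56 higher, none lower and a median of 0.44.

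On single arrays the median of the 81 genes was 0.37, 0.51 and 0.43 in the first mutator round and 0.42, 0.58 and 0.36 in the repeat round, against 0.00, 0.02 and -0.01 on non-mutator arrays 2, 3 and 4. The shared window held 30, 31 and 39 of the 81 genes on those non-mutator arrays. For the 40 genes outside it on every array the non-mutator medians were 0.01, 0.19 and 0.13. Between 78 and 81 genes were above 0 on 5 of the mutator arrays. First-round array 1 stood apart, with 66 genes above 0 and the widest spread (SD 0.35, against 0.19 to 0.28 on the others). Without that array 79 genes were called higher in the mutator. Taken gene by gene, 63 were above 0 on all 6 mutator arrays, 15 on 5 and 3 on fewer. For 55 of the 81 genes every mutator array lay above every non-mutator array, where 28.3% of the 6173 probes with a value on all 9 arrays did so. Genes in the shared window enter this count with that shared value on the non-mutator side. The window held 33.3% of the 81 genes on all 3 non-mutator arrays, against 3.57% of all probes.

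**Figure D2:**
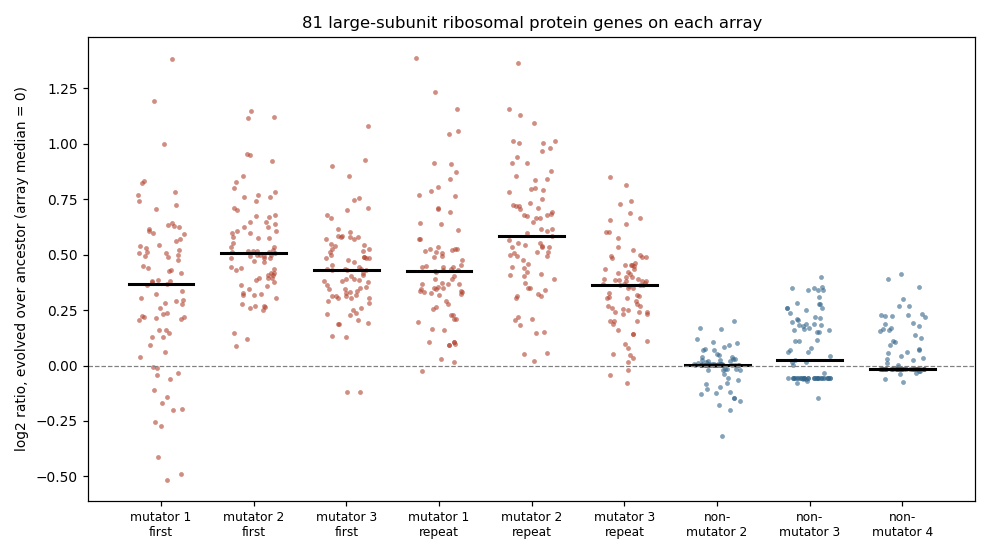
Log2 ratio of each of the 81 genes (points) on the 6 mutator arrays (red) and the 3 non-mutator arrays (blue), with each array's median as a bar and 0 as the median of all probes on the array. Mutator medians lie between 0.36 and 0.58 and non-mutator medians between -0.01 and 0.02. The rows of points on the 3 non-mutator arrays are the shared ratios.

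RPL15A and RPL15B, the copies of a protein buried in the rRNA of the large subunit, were the 1st and 4th highest of the genes in the mutator. RPL15A ranged from 0.71 to 1.24 with a median of 0.97 over the 6 mutator arrays, against 0.00, -0.06 and -0.01 on non-mutator arrays 2, 3 and 4. RPL15B ranged from 0.59 to 1.39 with a median of 0.87 in the mutator, against the same 0.00, -0.06 and -0.01 in the non-mutator. Neither gene overlapped between the groups. Their mutator means were 0.96 ± 0.13 (a fold of 1.95, adjusted p = 1.5e-05) and 0.92 ± 0.13 (1.89, adjusted p = 1.8e-05; SD, n = 3 replicates each). Both are among the 27 genes with shared non-mutator ratios.

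RPL22A and RPL22B came next to them, at ranks 3 and 5. Their protein is not essential in yeast and lies on the outside of the subunit. RPL22A ranged from 0.61 to 1.19 over the mutator arrays (median 0.93) and had 0.09, 0.20 and 0.35 on non-mutator arrays 2, 3 and 4. RPL22B ranged from 0.67 to 1.0005 in the mutator (median 0.86), against -0.32, -0.15 and -0.02 in the non-mutator. The copies were thus alike in the mutator and lay on opposite sides of 0 on all 3 non-mutator arrays, where neither was in the shared window. Mutator means were 0.93 ± 0.10 for RPL22A (adjusted p = 3.1e-05) and 0.85 ± 0.12 for RPL22B (adjusted p = 8.2e-05; SD, n = 3 each).

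RPL33B, at rank 2, had mutator values of 0.76 to 1.36 (median 0.82), against 0.16, 0.40 and 0.39 on non-mutator arrays 2, 3 and 4. Its mutator mean was 0.95 ± 0.14 (SD, n = 3, adjusted p = 4.8e-05). RPL9B, a copy of a protein near the base of the stalk, had 0.53 to 1.10 (median 0.71), against 0.20, 0.24 and 0.41 in the non-mutator, with a mutator mean of 0.79 ± 0.11 (adjusted p = 6.2e-05). These were the 2 genes of the 81 that rose in the non-mutator as well. RPL27A, at rank 8, had 0.55 to 1.01 (median 0.67) in the mutator, against shared ratios of 0.00, -0.06 and -0.01 in the non-mutator, and a mutator mean of 0.71 ± 0.16 (adjusted p = 0.000105).

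**Figure D3:**
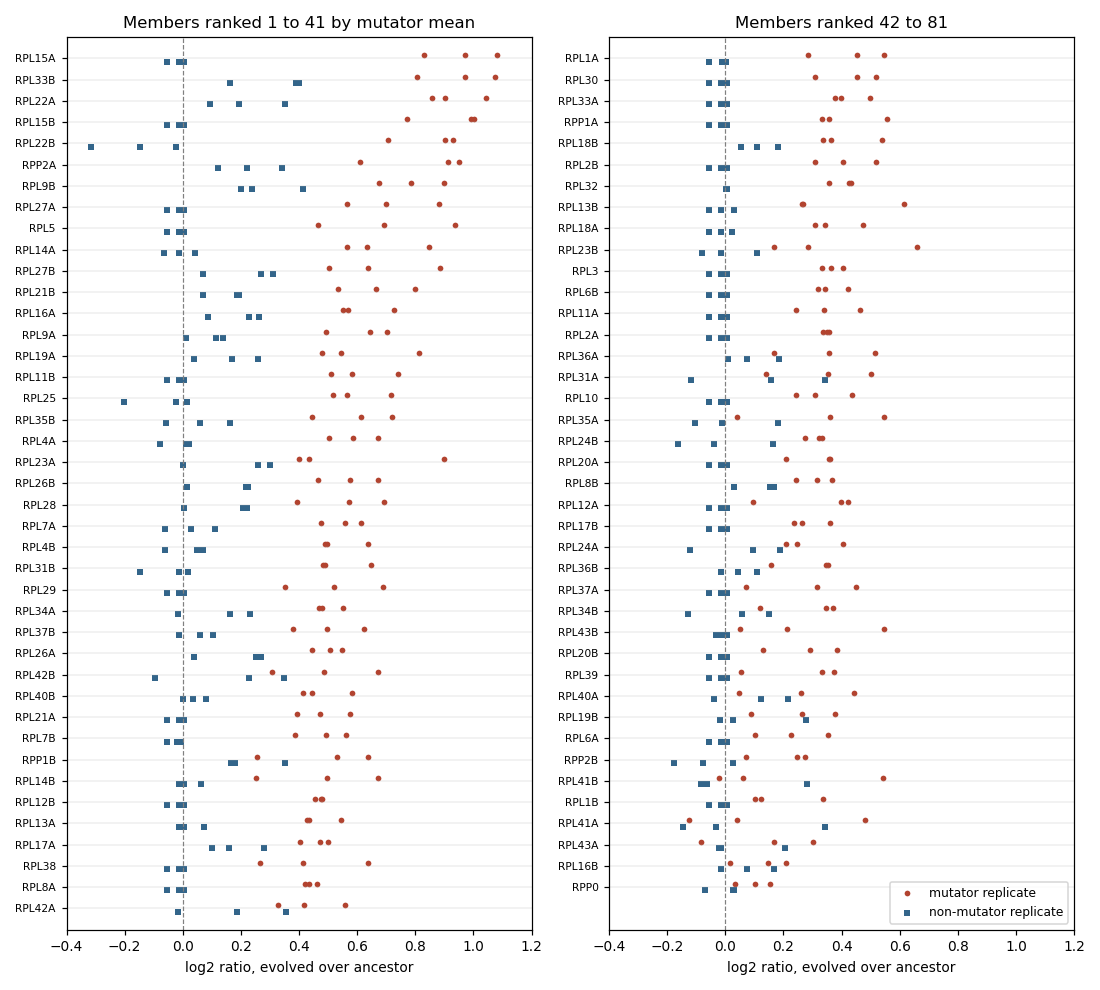
Log2 ratio of each gene in the 3 mutator replicates (red circles, each the mean of 2 arrays) and on the 3 non-mutator arrays (blue squares), with genes in order of their mutator mean. The highest mean is 0.96 for RPL15A and the lowest 0.10 for RPP0, and 27 genes show the same blue values because their non-mutator ratios are shared.

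The acidic stalk is the mobile arm of the subunit that recruits and activates translation factors. It is built from RPP0, which anchors it, the small acidic proteins P1 and P2, and RPL12 at its base. Of its 7 genes 6 rose in the mutator, with a median of 0.41, but the members were far apart. RPP2A had 0.16 to 1.12 with a median of 0.92 over the mutator arrays, against 0.12, 0.34 and 0.22 on non-mutator arrays 2, 3 and 4; its mutator mean was 0.82 ± 0.19 (SD, n = 3, adjusted p = 0.000145). RPP2B had -0.20 to 0.49 with a median of 0.24, against -0.18, 0.02 and -0.08, and a mutator mean of 0.20 ± 0.11 (adjusted p = 0.0264). RPP0, the lowest of the 81, had -0.14 to 0.22 with a median of 0.11, against 0.03, -0.07 and 0.03. These 3 genes overlapped between the groups on first-round array 1, where they had 0.16, -0.20 and -0.14, and on none of the other 5 mutator arrays. The RPP0 mean of 0.10 ± 0.06 did not pass the test (adjusted p = 0.102). RPP1A and RPP1B averaged 0.41 and 0.47, and RPL12A and RPL12B 0.30 and 0.47, all called higher.

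The 5S ribonucleoprotein brings 5S rRNA into the pre-60S particle and holds RPL5 and RPL11. All 3 of its genes rose in the mutator. RPL5 had 0.23 to 1.38 with a median of 0.63 over the mutator arrays and a mean of 0.70 ± 0.24 (SD, n = 3, adjusted p = 0.000436). RPL11B averaged 0.61 ± 0.12 and RPL11A 0.35 ± 0.11, both called. The 3 genes lay in the shared window on every non-mutator array, with log2 ratios of 0.00, -0.06 and -0.01 on arrays 2, 3 and 4.

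The polypeptide exit tunnel and its rim, where the nascent chain leaves the ribosome and meets chaperones and targeting factors, are lined by proteins of 14 of the genes. All 14 rose in the mutator, with a median of 0.52. RPL25, which gives the signal recognition particle and the nascent polypeptide-associated complex their docking site, had 0.45 to 0.92 (median 0.52), against -0.20, 0.02 and -0.02 on non-mutator arrays 2, 3 and 4. Its mean was 0.60 ± 0.10 in the mutator (SD, n = 3, adjusted p = 0.00021), and the groups did not overlap. The rest of the group averaged 0.24 (RPL19B) to 0.61 (RPL19A) in the mutator, with RPL4A at 0.59, RPL35B at 0.59 and RPL39 at 0.25.

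Around the peptidyl transferase centre, the site of peptide bond formation, RPL2A, RPL2B, RPL3 and RPL10 rose, with a median of 0.36 and a narrow range of 0.33 to 0.41. RPL10 is the last of them to join, in the cytoplasm, and averaged 0.33 ± 0.10 (SD, n = 3, adjusted p = 0.00121) with -0.04 on first-round array 1. RPL3 averaged 0.37 ± 0.04 (adjusted p = 0.000261). These 4 genes were in the shared window on all 3 non-mutator arrays. RPL40A and RPL40B are made as fusions to ubiquitin and averaged 0.25 ± 0.20 (adjusted p = 0.0368) and 0.48 ± 0.09 (adjusted p = 0.00019).

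Single-copy genes have no paralogue to share a probe with, and 10 of the 11 rose, with a median of 0.43 beside 0.44 for the 70 genes in pairs. In order of their mutator means they were RPL5 (0.70), RPL25 (0.60), RPL28 (0.55), RPL29 (0.52), RPL38 (0.44), RPL30 (0.43), RPL32 (0.40), RPL3 (0.37), RPL10 (0.33), RPL39 (0.25) and RPP0 (0.10). RPL28, the protein whose mutation makes yeast resistant to cycloheximide, had 0.30 to 0.71 (median 0.57) in the mutator, against 0.01, 0.21 and 0.22 on non-mutator arrays 2, 3 and 4. RPL29, the small protein that is dispensable for growth, had 0.34 to 0.75 (median 0.52), RPL38 0.17 to 0.67 (median 0.41), and RPL30, which binds and represses the splicing of its own transcript, 0.23 to 0.54 (median 0.45). These 3 were at the shared ratios in the non-mutator. RPL32 was steady, with 0.35 to 0.49 (median 0.38) in the mutator, against 0.01, 0.00 and 0.00 in the non-mutator. RPL39, a very small protein of the tunnel wall, had -0.08 to 0.60 (median 0.26) in the mutator. Each neighbouring pair in this order differed by less than the larger of the SDs of its genes.

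Apart from RPP0, 4 genes did not pass the test in the mutator: RPL41A, RPL41B, RPL43A and RPL16B. RPL41A and RPL41B encode the shortest protein of the ribosome, an identical peptide of very few residues. RPL41A had -0.51, 0.12 and -0.12 on first-round arrays 1, 2 and 3 and 0.26, 0.84 and 0.20 on repeat arrays 1, 2 and 3. RPL41B had -0.49, 0.15 and -0.12 in the first round and 0.44, 0.94 and 0.24 in the repeat round. The copies thus followed each other and had the widest ranges among these pairs, 1.36 and 1.43. Their means were 0.13 ± 0.31 (adjusted p = 0.409) and 0.19 ± 0.31 (adjusted p = 0.203), and on non-mutator arrays 2, 3 and 4 they had -0.14, 0.34 and -0.03 for RPL41A and -0.08, 0.28 and -0.06 for RPL41B. RPL43A had -0.27 to 0.35 (median 0.17) in the mutator, against -0.02, 0.21 and -0.01 in the non-mutator, with a mean of 0.13 ± 0.19 (adjusted p = 0.213). RPL16B had -0.06 to 0.31 (median 0.12), against 0.07, 0.17 and -0.01, with a mean of 0.12 ± 0.10 (adjusted p = 0.093). All 4 overlapped between the groups. Among the 8 lowest means, RPP2B (described above), RPL1B and RPL6A passed. RPL1B had 0.05 to 0.40 (median 0.15) and a mean of 0.19 ± 0.13 (adjusted p = 0.0249), and RPL6A had 0.02 to 0.49 (median 0.20) and a mean of 0.23 ± 0.12 (adjusted p = 0.0102). The called genes with the largest adjusted p were RPL40A (0.0368), RPL43B (0.0342), RPL19B (0.0313) and RPL35A (0.0304).

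The genes lie on 14 of the 16 chromosomes, and their median was above 0.25 on each, from 0.27 for 3 genes on chromosome X to 0.55 for 9 genes on chromosome VII, while the medians of all probes on the same chromosomes ran from -0.23 on chromosome VI to 0.06 on chromosome XIV. The size of these changes depends on the scale of the arrays: with the median absolute deviation over all probes made equal between arrays, the mutator median was 0.28 and 55 genes were called higher.

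Paralogues were compared as A minus B on the same array, which removes what both copies share. In the mutator 18 of the 35 pairs differed (limma, adjusted p under 0.05), with A higher in 9 and B higher in 9. The adjustment ran over the 61 pairs on the array whose symbols share a stem and end in A and B. Among the 26 other pairs 17 were called, and among all 61, these 35 included, 57.4%. The share among the large-subunit pairs was thus no higher than among the other pairs. The other pairs take in those of the small ribosomal subunit, so they are not a background of paralogues in general. The median size of the difference was 0.14, beside 0.17 in the 26 other pairs, and 15 of the 35 pairs lay within 0.1, beside 7 of the 26. A probe that binds both copies makes such differences smaller than they are, and the extent of this was not tested here. Both copies rose in 32 of the 35 pairs, and the A copies and the B copies had medians of 0.43 and 0.47. With median absolute deviations made equal between arrays, or with quantile normalization, 3 of the 35 pairs were called, and with 1 mutator round at a time 21 were called from the repeat arrays and 8 from the first-round arrays.

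The P2 stalk proteins had the widest gap. RPP2A exceeded RPP2B on all 6 mutator arrays, by 0.54, 0.68 and 0.67 in replicates 1, 2 and 3, and on non-mutator arrays 2, 3 and 4 by 0.30, 0.32 and 0.30. The mean difference was 0.63 ± 0.08 in the mutator (adjusted p = 1.2e-05) and 0.30 ± 0.01 in the non-mutator (adjusted p = 0.00205; SD, n = 3 each). The mutator gap was wider than the non-mutator gap by 0.32 (SE 0.05, adjusted p = 0.00469). Neither copy was in the shared window.

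RPL16A exceeded RPL16B by 0.55, 0.52 and 0.41 in mutator replicates 1, 2 and 3, against 0.01, 0.09 and 0.24 on non-mutator arrays 2, 3 and 4. The mutator mean was 0.49 ± 0.08 (adjusted p = 0.000301), and the A copy was above the B copy on every mutator array. RPL33A lay below RPL33B by 0.59, 0.58 and 0.41 in the mutator, with a mean difference of -0.53 ± 0.10 (adjusted p = 0.000625). The order in RPL33 was the same in the non-mutator (-0.34 ± 0.16, adjusted p = 0.0154), where RPL33A was at the shared ratio on every array. RPL19A exceeded RPL19B by 0.39, 0.44 and 0.28 in the mutator, against 0.06, -0.02 and 0.14 in the non-mutator, with both copies outside the window. The mutator mean was 0.37 ± 0.08 (adjusted p = 0.000576), and it exceeded the non-mutator difference by 0.31 (SE 0.06, adjusted p = 0.0116).

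The next 4 pairs by size in the mutator were RPL35 (-0.28 ± 0.12, adjusted p = 0.00297), RPL11 (-0.26 ± 0.02, adjusted p = 0.000301), RPL1 (0.24 ± 0.10, adjusted p = 0.00297) and RPL40 (-0.23 ± 0.14, adjusted p = 0.0136; SD, n = 3 each). RPL11 had -0.25, -0.28 and -0.27 in replicates 1, 2 and 3, each the mean of both rounds, which differed, at -0.37 over the repeat arrays and -0.16 over the first-round arrays. Both RPL11 copies, and RPL1B, were in the shared window on every non-mutator array. The non-mutator SD of A minus B was 0.0002 for RPL11 and 0.0022 for RPL1. It enters the estimate of the spread behind their mutator p-values and makes them smaller. In RPL40 the B copy was higher by 0.40, 0.14 and 0.15 in mutator replicates 1, 2 and 3, while A minus B was -0.04, 0.14 and 0.09 on non-mutator arrays 2, 3 and 4. Both RPL40 copies were outside the window, and the difference between the groups was -0.29 (SE 0.08, adjusted p = 0.0323). At the other end, RPL15, RPL18, RPL20, RPL24 and RPL27 differed by 0.04 in size or less on average, and none of these passed the test.

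Some pairs moved together from array to array and others did not. Across the 6 mutator arrays Pearson's r between the copies was 0.998 for RPL18, 0.993 for RPL41, 0.979 for RPL37 and 0.964 for RPL15, while it was -0.488 for RPL13 and -0.262 for RPL33. Each value rests on 6 arrays of 3 RNA numbers that share their centring, and is given as a description. RPL37 combined a high r with a steady gap, the B copy being higher on all 6 arrays by a mean of 0.22.

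In the non-mutator 9 of the 35 pairs were called, beside 23.0% of all 61 pairs, but 6 of these 9 had a copy in the shared window on at least 1 array: RPL17, RPL21, RPL23, RPL27, RPL33 and RPP1A with RPP1B. The other 3 were RPP2, RPL9 and RPL22. RPL9A lay below RPL9B by 0.19, 0.12 and 0.27 on non-mutator arrays 2, 3 and 4 (mean -0.20 ± 0.08, adjusted p = 0.0154) and by 0.14, 0.20 and 0.18 in mutator replicates 1, 2 and 3 (mean -0.17 ± 0.03, adjusted p = 0.00603). The mutator gap of RPL9 differed between rounds, at -0.33 over the repeat arrays and -0.01 over the first-round arrays. RPL22A exceeded RPL22B by 0.09 ± 0.08 in the mutator (adjusted p = 0.0854) and by 0.41, 0.34 and 0.38 on the non-mutator arrays (mean 0.38 ± 0.03, adjusted p = 0.00148). The RPL22 gap was smaller in the mutator by 0.29 (SE 0.05, adjusted p = 0.00907 for the test of the difference). With shared ratios set to missing 17 pairs could be tested, and RPP2, RPL9 and RPL22 were again the 3 called in the non-mutator.

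In both groups 6 pairs were called, RPP2, RPL9, RPL17, RPL21, RPL23 and RPL33, each with the same copy higher in the mutator as in the non-mutator. Most of these mutator gaps were wider over the repeat than over the first-round arrays: A minus B was -0.77 and -0.28 for RPL33, 0.36 and 0.05 for RPL23, 0.28 and 0.06 for RPL17, and -0.26 and -0.11 for RPL21, with the repeat value first, and 0.68 and 0.57 for RPP2. The difference between the groups passed the test in 12 of the 35 pairs, beside 34.4% of all 61 A and B pairs. Of these 12, RPL19, RPL22, RPL40 and RPP2 had both copies outside the shared window on every non-mutator array. The rest, RPL1, RPL8, RPL11, RPL14, RPL16, RPL27, RPL31 and RPL35, had a copy in it on some or all of those arrays. Across the 12 pairs with both copies outside the window on every array, A minus B in the mutator and in the non-mutator had r = 0.584 over pairs, with 6 of 12 of the same sign.

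**Figure D4:**
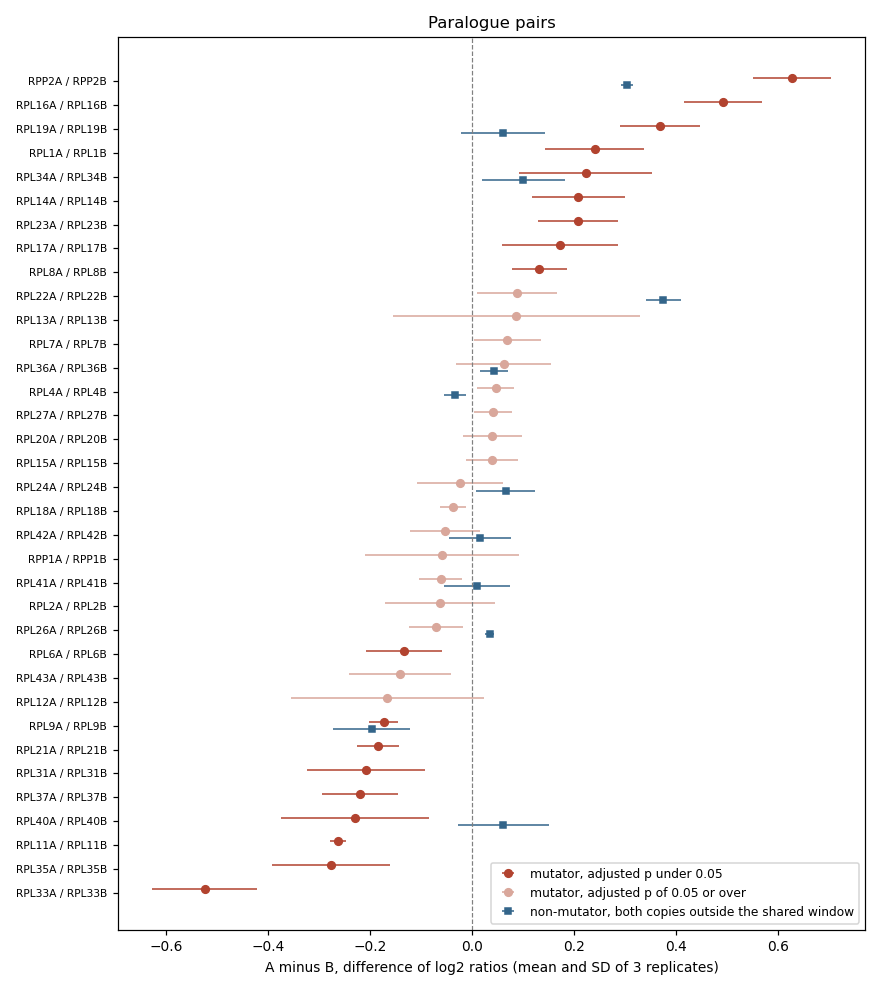
Mean difference A minus B of the log2 ratios in each of the 35 pairs, with the SD over 3 replicates as a bar, in the mutator (red circles, dark where the adjusted p is under 0.05) and, for the 12 pairs with both copies outside the shared window, in the non-mutator (blue squares). RPP2 has the widest gap in the mutator (0.63), RPL33 the widest with B higher (-0.53), and RPL22 has a gap of 0.09 in the mutator and 0.38 in the non-mutator.

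In the non-mutator 2 of the 81 genes rose, RPL33B (0.32 ± 0.13, adjusted p = 0.0292) and RPL9B (0.28 ± 0.11, adjusted p = 0.0281), and none fell (SD, n = 3 each, limma). Over all probes 10.2% were called higher and 11.1% lower. At an unadjusted p under 0.05, 10 genes were higher and 0 lower. The share of all probes at this looser threshold was not counted, so these counts have no background to be read against. Both calls were lost when the 6 mutator arrays were entered separately or when first-round mutator array 1 was left out, and leaving out a non-mutator array gave 0 or 1 called genes.

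For the 40 genes outside the shared window on every array the median of the non-mutator means was 0.11, with medians of 0.01, 0.19 and 0.13 on arrays 2, 3 and 4, so that array 2 was close to 0. This compares with -0.02 for the 27 genes inside it on all 3 arrays. The 40 had a mutator median of 0.49. Of the 40, 20 were above 0 on all 3 non-mutator arrays and 1, RPL22B, was below 0 on all 3. After RPL33B and RPL9B the highest were RPP1B (0.17, 0.35 and 0.18 on arrays 2, 3 and 4), RPP2A (0.12, 0.34 and 0.22) and RPL27B (0.07, 0.31 and 0.27). None of these passed the test (adjusted p = 0.0986, 0.099 and 0.128). Over all 81 genes the lowest were RPL22B (-0.16 ± 0.15), RPP2B (-0.08 ± 0.10), RPL25 (-0.07 ± 0.12), RPL31B (-0.05 ± 0.09) and RPL7B (-0.03 ± 0.03), with adjusted p-values of 0.176 to 0.777. RPL31B and RPL7B were each in the window on 1 array. With all shared ratios set to missing, 49 genes could be tested, and the same number, 2, was called higher, beside 10.9% of all probes.

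The change in the mutator exceeded that in the non-mutator for 61 of the 81 genes and fell short of it for none (limma test of the difference, adjusted p under 0.05), beside 33.0% of all probes with a positive and 30.9% with a negative difference. The median difference was 0.39. The largest were RPL22B (1.01, SE 0.10, adjusted p = 0.000266), RPL15A (0.98, SE 0.08, adjusted p = 9.8e-05), RPL15B (0.94, SE 0.08, adjusted p = 0.000125), RPL27A (0.74, SE 0.09, adjusted p = 0.000638) and RPL22A (0.72, SE 0.09, adjusted p = 0.000693). RPL15A, RPL15B and RPL27A enter this list with shared non-mutator values, and RPL22A and RPL22B with values of their own. The smallest were RPL16B (0.05, SE 0.08), RPL43A (0.07, SE 0.12), RPL41A (0.08, SE 0.20), RPP0 (0.10, SE 0.07) and RPL19B (0.15, SE 0.11), none of which passed.

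Of the 40 genes outside the window 26 passed this test, against 26 of the 27 inside it on all 3 arrays. With shared ratios set to missing 31 of 49 genes passed, beside 32.9% of all probes. With median absolute deviations made equal between arrays the count was 32 of 81, and with quantile normalization 30 of 81, none lower in either.

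The medians of the mutator rounds were close, at 0.45 over the repeat arrays and 0.43 over the first-round arrays, and 79 of the 81 genes were above 0 in the mean of each round. With 1 round at a time 71 genes were called higher from the repeat round and 69 from the first round. Single genes moved more than the median: 41 were higher in the repeat round and 40 lower, and the round means had r = 0.572 across the 81 genes, which are not independent. RPL5 averaged 0.43 over the repeat arrays, against 0.97 over the first-round arrays. RPL41A averaged 0.44 over the repeat and -0.17 over the first-round arrays, RPL33B 1.12 and 0.77, and RPL23A 0.80 and 0.36, with the repeat value first in each. The round is a label of the arrays only for the mutator, so a round effect in the non-mutator could not be measured.

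**Figure D5:**
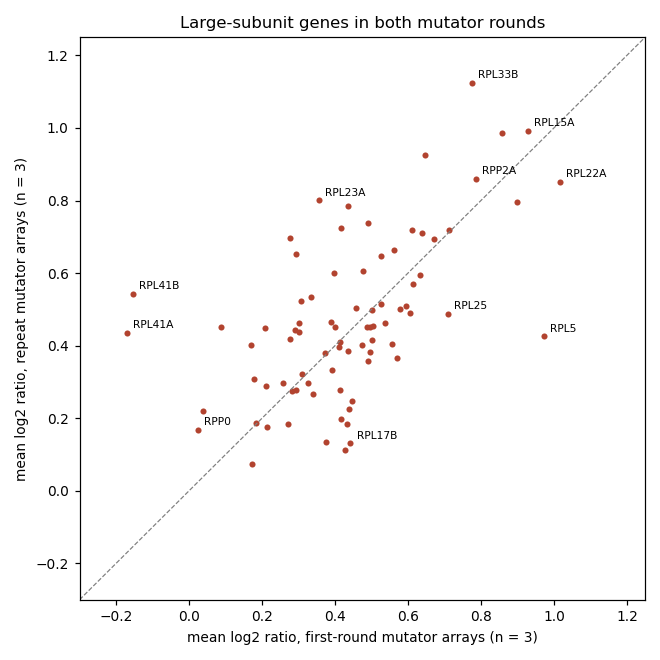
Mean log2 ratio of each of the 81 genes over the 3 first-round mutator arrays (horizontal axis) and the 3 repeat mutator arrays (vertical axis), with the line of equal values dashed. RPL5 lies far below the line (0.43 in the repeat, 0.97 in the first round), RPL41A and RPL41B far above it, and most genes lie above 0 on both axes.

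Dedicated chaperones bind particular ribosomal proteins, many of them as they leave the ribosome. All 5 listed rose in the mutator, with a median of 1.10, beside 37.3% of all probes called higher. ACL4, the chaperone of Rpl4, averaged 1.30 ± 0.09, against 0.12 ± 0.09 in the non-mutator; BCP1, which serves Rpl23, averaged 1.12 ± 0.06, against -0.07 ± 0.12. RRB1, for Rpl3, averaged 1.10 ± 0.09, against 0.08 ± 0.06, and SQT1, for Rpl10, 0.98 ± 0.02, against 0.00 ± 0.09 (SD, n = 3 each, limma adjusted p in the mutator of 4e-06 to 9e-06). The genes of the clients of these chaperones were at 0.59 and 0.54 (RPL4A and RPL4B), 0.58 and 0.37 (RPL23A and RPL23B), 0.37 (RPL3) and 0.33 (RPL10) in the mutator. SYO1, the last of the 5, had the lowest mean, 0.42 ± 0.02, and is named because of it. Its mutator arrays ran from -0.075 to 0.96 and overlapped the non-mutator arrays.

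Placeholder proteins and late maturation factors of the 60S subunit all rose too, 14 of 14 with a median of 1.36, beside 37.3% of all probes called higher. RLP24, which holds the place of Rpl24 in the nucleus, averaged 1.92 ± 0.13, against 0.27 ± 0.06 in the non-mutator. MRT4, which does so for RPP0, averaged 1.63 ± 0.08, against 0.09 ± 0.09. ARX1, an export factor that sits at the tunnel exit, averaged 1.72 ± 0.10, against 0.29 ± 0.03, and REI1, which releases it in the cytoplasm, 1.77 ± 0.08, against 0.20 ± 0.05. In the non-mutator 4 of the 14 were called higher, beside 10.2% of all probes. RPL24A and RPL24B averaged 0.29 and 0.31 in the mutator and RPP0 0.10, each below the log2 ratio of its placeholder.

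Regulators of ribosomal protein genes were mixed. Of 9 listed, 6 rose and 1 fell in the mutator, with a median of 0.67, beside 37.3% higher and 37.8% lower over all probes. RAP1, which binds their promoters, averaged 0.67 ± 0.11, against 0.00 ± 0.05 in the non-mutator. The kinase gene TOR1 averaged 0.68 ± 0.04, against -0.07 ± 0.05, the kinase gene SCH9 0.54 ± 0.05, against -0.18 ± 0.10, and ABF1, a general regulatory factor at some of these promoters, 0.78 ± 0.28, against 0.04 ± 0.04. FHL1 and IFH1, which also act at these promoters, averaged 0.76 ± 0.29 (adjusted p = 0.000748) and 1.34 ± 0.71 (adjusted p = 0.00318), against 0.00 ± 0.07 and 0.57 ± 0.29. The 2 not called were HMO1 (0.03 ± 0.18, adjusted p = 0.734) and CRF1 (0.56 ± 0.76, adjusted p = 0.0853). CRF1 had no value on repeat arrays 1 and 2, so its replicates 1 and 2 are each a single first-round array. SFP1 was the one that fell, by 0.24 on the log2 scale (SD 0.10, adjusted p = 0.00815), with -0.44 over the repeat arrays and -0.05 over the first-round arrays, and, like RKM5 below, is named because of its value. These are transcript ratios and say nothing of the activity of the proteins.

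Methyltransferases that modify large-subunit proteins had 5 of 7 higher and 1 lower in the mutator, with a median of 0.33, beside 37.3% and 37.8% of all probes. RKM3 averaged 1.01 ± 0.13, against -0.09 ± 0.04 in the non-mutator, RKM2, which acts on Rpl12, 0.61 ± 0.03, against 0.12 ± 0.10, HPM1, which acts on Rpl3, 0.54 ± 0.08, against 0.08 ± 0.04, and RKM4, which acts on Rpl42, 0.33 ± 0.02, against 0.01 ± 0.06. RKM5, the one that fell (-0.45 ± 0.49, adjusted p = 0.0455), had 0.96 on repeat array 1 and -1.07 to -0.51 on the other 5 mutator arrays. Factors that work at the tunnel exit moved least: 6 of the 11 tested rose, beside 37.3% of all probes, none fell, and the median was 0.21. The nascent-chain chaperone genes ZUO1 and SSZ1 averaged 0.54 ± 0.11 and 0.41 ± 0.13 in the mutator, against 0.00 ± 0.11 and -0.08 ± 0.04 in the non-mutator. MAP1, a methionine aminopeptidase, averaged 0.59 ± 0.15, against -0.07 ± 0.12, and SSB1, an Hsp70 of the ribosome, 0.21 ± 0.08, against -0.03 ± 0.02 (SD, n = 3 each). SSB1 was in the shared window on 2 non-mutator arrays. It had -0.20 on first-round array 1 and overlapped between the groups.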

How the data were processed

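The values were deposited by the authors as linear ratios per probe on each of 9 two-colour arrays, with the evolved strain in Cy5 and its ancestor in Cy3 per the labels. For background correction, scaling within arrays, software and array build the sources used here give nothing. Ratios at the floor of 0.01 (tolerance 1e-04) were set to missing. The log2 of the rest was centred on each array's median. Both mutator arrays of an RNA number were averaged, and the 6866 probes with at least 2 replicates per group were fitted in limma 3.58.1 (R 4.3.3; lmFit, eBayes, two-sided tests, Benjamini-Hochberg over all probes, calls at adjusted p under 0.05). A minus B differences were fitted the same way over 61 pairs. Only the limma fit was tried on simulated data, with the same spread in both groups. Centring, removal of floor ratios, averaging of arrays and the shared ratios were not simulated. No intensities are used here; the number of arrays, the shared non-mutator ratios and the scale of the arrays limit the precision. Symbols came from the R64 reference table by systematic name, which held all 82 matches. The members and gene lists were chosen with earlier results of these data known. Full values are given for the 8 highest and 8 lowest genes in the mutator, the 5 highest and 5 lowest in the non-mutator and likewise for the difference, single-copy genes, the 8 widest pairs and called non-mutator pairs, and up to 4 genes with the smallest p per other list. The non-mutator arrays took their numbers from their titles, and their descriptions carry other numbers. Sequences of the probes and paralogues were not used here.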

Additional observations from a re-analysis of the deposited data

Results flagged for a closer look

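Over the 6 mutator arrays 4 of the 81 genes had 1 array far from the other 5; chance gives about 1 in 20. RPL13A had 0.83 on first-round array 1, where the next value was 0.47. RPP1B had -0.20 on first-round array 1, where the next was 0.52. RPL40B had 0.68 on repeat array 2, where the next was 0.49, and RPL42A had 0.79 on repeat array 2, where the next was 0.45.

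For 61 of the 81 genes the mutator change differed from the non-mutator change by limma's test of the difference. The highest differences of log2 ratios, mutator minus non-mutator, were 1.01 for RPL22B, 0.98 for RPL15A, 0.94 for RPL15B, 0.74 for RPL27A and 0.72 for RPL22A. The non-mutator values of RPL15A, RPL15B and RPL27A are the ratios that 283 to 320 probes share on each array, and those of RPL22A and RPL22B are not.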

How the results depend on the processing

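Of the 76 genes called higher in the mutator all stayed above 0 in each of 22 alternatives and 51 kept the call in all; RPL43B and RPP2B lost it most often (11 each). No called value reversed, but some uncalled ones changed sign under at least 1 alternative, among them the differences of RPL16B, RPL19B, RPL41A and RPL43A. With first-round arrays only the mutator means of RPL41A and RPL41B became -0.17 and -0.15, and the non-mutator median fell below 0 with quantile normalization and without non-mutator replicate 3 or 4. The 76 became 44 with shared ratios set to missing (49 genes tested) and 0 at an absolute log2 ratio of at least 1; leaving out 1 replicate gave 65 to 77. The mutator median of 0.43 became 0.53 without centring, which leaves the mutator array medians at 0.08 to 0.12, 0.28 with equal median absolute deviations on all arrays and 0.33 with quantile normalization. The 2 genes called higher in the non-mutator became 16 and 17 under those 2 scalings, 5 with values on every array only, 8 with each group fitted alone, and 0 with 6 mutator arrays as replicates, round as a random block, repeat arrays only, without first-round mutator array 1, with the replicate block, at adjusted p under 0.01 and at a log2 ratio of at least 1; leaving out 1 replicate gave 0 to 5. The count called lower there, 0, became 1 under both scalings, and the non-mutator median of 0.004 became 0.0883 with shared ratios set to missing. For the difference, 61 genes became 32 and 30 under the scalings, 31 with shared ratios set to missing and 1 at a log2 ratio of at least 1, and its median of 0.39 became 0.49 without centring and 0.23 and 0.28 under the scalings. The 18 pairs called in the mutator became 3 and 3 under the scalings, 8 with first-round arrays only, 9 with shared ratios set to missing (17 pairs tested), 11 at adjusted p under 0.01, 0 at a log2 ratio of at least 1 and 3 with the replicate block. The 9 pairs called in the non-mutator became 2 with 6 mutator arrays, 2 with round as a random block, 3 with first-round arrays only, 3 with shared ratios set to missing, 3 without first-round mutator array 1, 0 with the replicate block, 2 with each group fitted alone, 2 at adjusted p under 0.01 and 0 at a log2 ratio of at least 1; leaving out 1 replicate gave 2 to 12. Except where fewer values were tested, the cause was not tested. Numbers 2 and 3 are shared by the groups' labels, but same-numbered replicates did not deviate together (r = -0.04 and 0.02), so the numbers do not pair them; with the replicate block 65 genes were called higher in the mutator and 43 in the difference. A planned comparison by the sequence identity of paralogues was not run, for want of sequences here. The non-mutator counts rest on 3 arrays with shared ratios, which limits what they can show.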
